A study of Mus musculus with 12 samples.

Results

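The S100 proteins are small calcium sensors that act by binding other proteins, and annexin A2 is a calcium-dependent membrane-binding protein that forms a complex with one of them, S100A10. Their ribosome-bound RNA is described here in astrocytes of Fmr1 knockout and wild-type mouse cortex for 8 genes, which are S100a1, S100a6, S100a10, S100a11, S100a13, S100a16, S100b and Anxa2. They were found by symbol among the 52550 features of the deposited count table, and all 8 were among the 14990 features that passed a filter on low counts. S100a10 was picked for its low level in the knockout libraries and its wide spread in the wild-type libraries, so its difference between genotypes is given as a description with no test.

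The study isolated ribosome-bound RNA by TRAP, in which an eGFP-tagged ribosome is pulled down with an anti-eGFP antibody, from 1 mm sections of somatosensory cortex. The knockout mice were Fmr1−/y Aldh1l1-TRAP and the wild-type mice were Fmr1+/y Aldh1l1-TRAP, so both groups carried the TRAP transgene, named for the astrocyte gene Aldh1l1. Both were on an FVB/C57 background at postnatal day 40. The labels hold 12 entries, which are 6 libraries with 2 entries each, knockout libraries 14, 16 and 18 and wild-type libraries 13, 15 and 17, and they leave unsaid whether the libraries are from different animals. The p-values therefore cover the spread among these 6 libraries and may not reach beyond them. The Fmr1−/y genotype, which removes the RNA-binding protein FMRP, applies to all cell types and not to astrocytes alone.

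S100 genes lie mostly in a cluster on mouse chromosome 3, and the proteins pair up and open a binding face when calcium is bound. S100B is the best known of them in the brain, where it is made mainly by astrocytes and is also secreted. S100A10 is the exception of the family because it is held in its active shape without calcium. It joins annexin A2 beneath the cell membrane, where the complex gathers plasminogen and its activator, and it escorts serotonin receptors and ion channels to the membrane.

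Of the 8 genes, 6 are on chromosome 3 in the GRCm38 build, with positions taken from the RefSeq annotation. S100a1, S100a13, S100a16 and S100a6 lie within chr3:90511034-90614414. S100a11 lies at chr3:93520496-93526288 and S100a10 at chr3:93555117-93564645, 28828 bases apart and 2906081 bases past S100a6. S100b is on chromosome 10 at chr10:76253836-76261319, and Anxa2 is on chromosome 9 at chr9:69453683-69491792.

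Upstream sequences are shown for the 2 places where neighbouring genes bear on the values below. S100a1 and S100a13 are transcribed away from each other. In RefSeq the S100a1 start and the S100a13 start of the promoter table bound a stretch of 104 bases, chr3:90514331-90514434, printed on the + strand. The second sequence is the 250 bases before the start of S100a11, chr3:93520246-93520495, on the + strand, where capitals mark matches to the Sp1 GC box GGGCGG and the AP-1 motif TGANTCA. S100a11 is shown because its values followed those of S100a10 most closely among the 8 genes.
S100a1 to S100a13: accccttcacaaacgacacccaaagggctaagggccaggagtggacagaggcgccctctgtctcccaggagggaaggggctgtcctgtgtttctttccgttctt
Before S100a11: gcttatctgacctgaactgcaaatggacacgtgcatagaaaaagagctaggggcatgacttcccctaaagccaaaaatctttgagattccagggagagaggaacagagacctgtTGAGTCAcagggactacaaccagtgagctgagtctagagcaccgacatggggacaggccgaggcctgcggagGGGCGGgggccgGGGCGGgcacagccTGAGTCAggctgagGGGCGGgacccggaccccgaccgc

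Both strands were searched for those motifs, for the TATA box TATAAA, for the cAMP response element TGACGTCA and for the STAT motif TTCNNNGAA. The stretch before S100a11 held 3 GC boxes and 2 AP-1 matches, none of them overlapping another, and the stretch between S100a1 and S100a13 held no match. The 250 bases before the Anxa2 start held 3 GC boxes, 1 AP-1 match and 1 TATA match. Those before the S100a16 start at chr3:90541146 held 1 GC box and 1 AP-1 match. The other S100a16 start, at chr3:90537254, and the starts of S100a1, S100a6, S100a13 and S100b had no match in that window. S100a10 had no start in the promoter table, so its own upstream sequence was not searched. Of the 32851 promoters in the table, 32.7% held a GC box, 6.75% an AP-1 match, 12.4% a TATA match, 1.55% a cAMP response element and 7.02% a STAT match in a window of that length. A match is a run of letters and was not tested as a binding site. The S100a13 gene of RefSeq also reaches back past its listed start, so that S100a1 and S100a13 share 98 bases on opposite strands. The library kit keeps strand, but no source used here gives the strand setting of the counting, and without it reads from those bases cannot be told apart.

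The genotype labels were checked on Fmr1, which had 4.32, 4.22 and 1.32 counts per 1000000 (CPM, scaled by the TMM method) in knockout libraries 14, 16 and 18, against 31.6, 38.4 and 37.0 CPM in wild-type libraries 13, 15 and 17. Total counts lay between 10953958 and 21696862 in knockout libraries and between 19787520 and 22397202 in wild-type libraries. Features on which ribosomal RNA reads are known to collect took 35.6% and 45.1% of the counts of knockout libraries 14 and 16, and between 0.892% and 7.45% of the other 4. The 15 astrocyte markers were all detected, among them Aldoc at 6590 to 7684 CPM over the 6 libraries. Markers of other cells were detected too. The 15 neuron markers summed to 1406 to 2722 CPM over the 6 libraries, lowest in wild-type library 13. The 11 oligodendrocyte markers summed to 645 to 1495 CPM, lowest in knockout library 16. The pulled-down RNA is therefore not from astrocytes alone. By edgeR's quasi-likelihood test with Benjamini-Hochberg adjustment over all genes, none of the 14990 passed 0.05, which is 0% of them, although 265 genes, 1.77%, had an unadjusted p under 0.05. Fmr1, the deleted gene, had the lowest unadjusted p of all and was still among the genes that did not pass. A gene that fails this threshold here is therefore not shown to be unchanged. DESeq2 called 8 of 14981 genes, 0.0534%, edgeR's classic exact test called 9, 0.06%, and limma voom called 0.

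S100a10 had the widest spread of the 8 genes, and that spread lay in the wild-type libraries. Its levels were 7.10, 5.49 and 9.90 CPM in knockout libraries 14, 16 and 18, against 39.99, 8.29 and 70.2 CPM in wild-type libraries 13, 15 and 17. All 3 knockout libraries were low, while 2 wild-type libraries were high and wild-type library 15 lay within the knockout range, so the groups overlapped. The means were 7.50 ± 2.23 CPM in knockout and 39.5 ± 31.0 CPM in wild-type libraries (SD, n = 3 each), and the fitted log2 fold change, knockout over wild type, was -2.36. The highest library was 1.80 times the lowest among knockout libraries and 8.47 times the lowest among wild-type libraries. The coefficient of variation was 29.8% in knockout and 78.4% in wild-type libraries, and the wild-type value ranked 253 among 13654 genes with a mean of at least 1 CPM, whose median was 15.6%. In bulk RNA of this kind fewer cells of a type and less RNA per cell cannot be told apart.

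The counts behind S100a10 were 87, 39 and 256 in the knockout libraries and 939, 210 and 1835 in the wild-type libraries. The exact 95% Poisson interval ran from 8.73 to 11.2 CPM in knockout library 18 and from 7.21 to 9.50 CPM in wild-type library 15, so these 2 overlapped. In wild-type libraries 13 and 17 it ran from 37.5 to 42.6 CPM and from 67.0 to 73.5 CPM, apart from each other and from library 15. The 2 entries of a library differed by 1.03 to 1.26 times. These intervals cover counting error only and, since S100a10 was picked for its wild-type spread, they describe how precisely each library was measured.

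**Figure D1:**
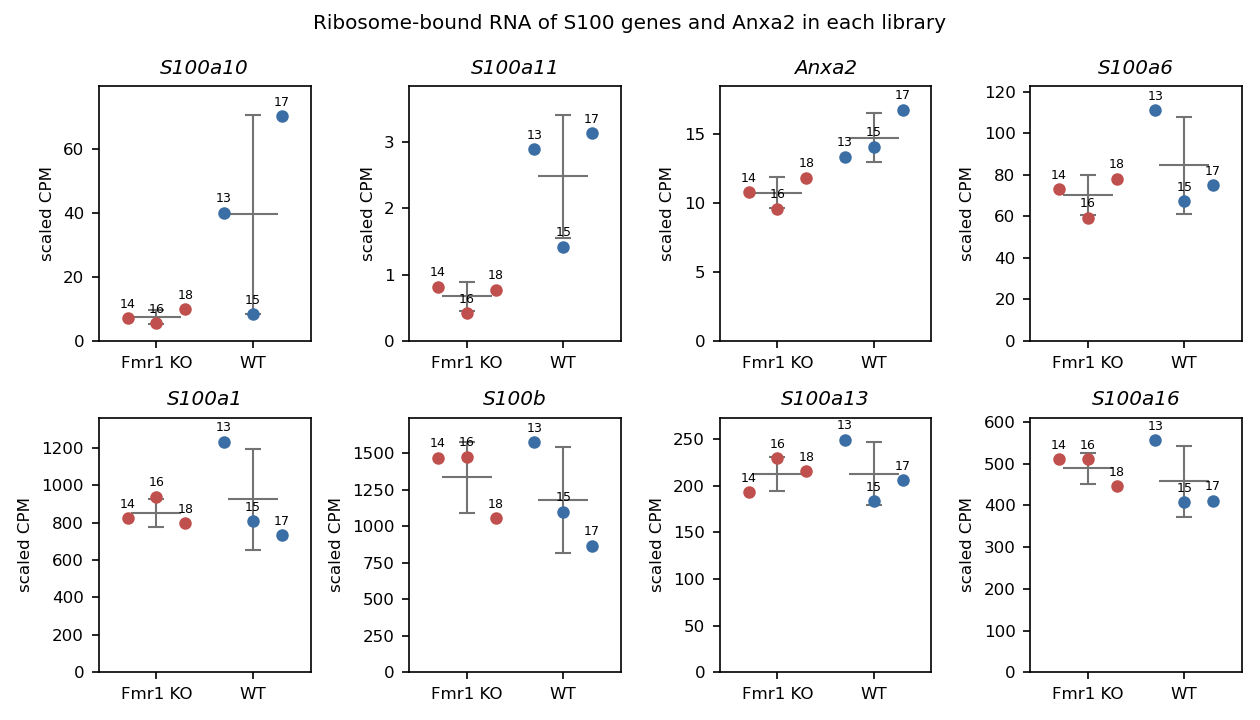
TMM-scaled CPM (vertical axes, linear from 0) of the 8 genes in the 3 Fmr1 KO libraries (red) and the 3 WT libraries (blue), with library numbers beside the points and grey bars for the mean ± SD. S100a10 was at 5.49 to 9.90 CPM in KO and 8.29 to 70.2 CPM in WT libraries, and S100a11 and Anxa2 are the genes whose groups do not overlap.

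The S100a10 difference depended on which libraries entered. Without wild-type library 17 the log2 fold change was -1.65, and without wild-type library 15 it was -2.84. The first number of the date-like part of the library titles was 5 for knockout libraries 14 and 16 and wild-type library 13, and 6 for the others. Within number 5 the knockout minus wild-type difference in mean log2 CPM was -2.68, and within number 6 it was -1.28. Within number 6, knockout library 18 at 9.90 CPM was above wild-type library 15 at 8.29 CPM and below wild-type library 17 at 70.2 CPM. Leaving out knockout libraries 14 and 16, those with the large ribosomal RNA share, gave -1.97, and taking that share as a covariate gave -1.82. Each of the 17 other settings kept the sign, which is tied to the choice of S100a10 for its low knockout level in these same libraries.

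S100a11, whose protein is a partner of annexin A1 and acts in membrane repair and in growth control, was the one of the other 7 genes closest to S100a10 in its values, and it lies in the same stretch of chromosome 3. Its levels were low, at 0.816, 0.422 and 0.774 CPM in knockout libraries 14, 16 and 18, against 2.90, 1.42 and 3.14 CPM in wild-type libraries 13, 15 and 17. All 3 knockout libraries lay below all 3 wild-type libraries, and wild-type library 15 was again the lowest of its group. The means were 0.671 ± 0.216 CPM in knockout and 2.49 ± 0.929 CPM in wild-type libraries (SD, n = 3 each). The log2 fold change was -1.82 with SE 0.47 and a 95% interval from -2.90 to -0.75, which in fold is 0.282 times the wild-type level, from 0.134 to 0.596.

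The S100a11 difference did not pass the adjusted threshold. The adjusted p over all genes was 1.00 by edgeR's quasi-likelihood test, 0.619 by DESeq2 and 0.384 by edgeR's classic exact test. An exact two-sided permutation test over the 6 libraries gave p = 0.1, the smallest that 3 libraries against 3 allow. Counts were 10, 3 and 20 in the knockout libraries and 68, 36 and 82 in the wild-type libraries. The exact 95% Poisson interval of knockout library 14, 0.391 to 1.50 CPM, overlapped that of wild-type library 15, 0.996 to 1.97 CPM. S100a11 was above the filter's level of 0.488 CPM in 2 of 3 knockout and 3 of 3 wild-type libraries. Its log2 difference was -2.30 within title number 5 and -1.45 within title number 6, and -1.65 without knockout libraries 14 and 16.

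Anxa2 encodes annexin A2, the membrane-binding partner of S100A10, with which it forms a tetramer. It stood at 10.8, 9.58 and 11.8 CPM in knockout libraries 14, 16 and 18, against 13.3, 14.1 and 16.7 CPM in wild-type libraries 13, 15 and 17. Here the groups did not overlap, and wild-type library 15, low for S100a10 and S100a11, was the middle one of its group for Anxa2. The means were 10.7 ± 1.11 CPM in knockout and 14.7 ± 1.79 CPM in wild-type libraries (SD, n = 3 each). The log2 fold change was -0.45 with SE 0.18 and a 95% interval from -0.86 to -0.04, with an adjusted p of 1.00 by edgeR's quasi-likelihood test and an exact permutation p of 0.1. The log2 difference was -0.39 within title number 5 and -0.38 within title number 6, and -0.29 without knockout libraries 14 and 16.

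**Figure D2:**
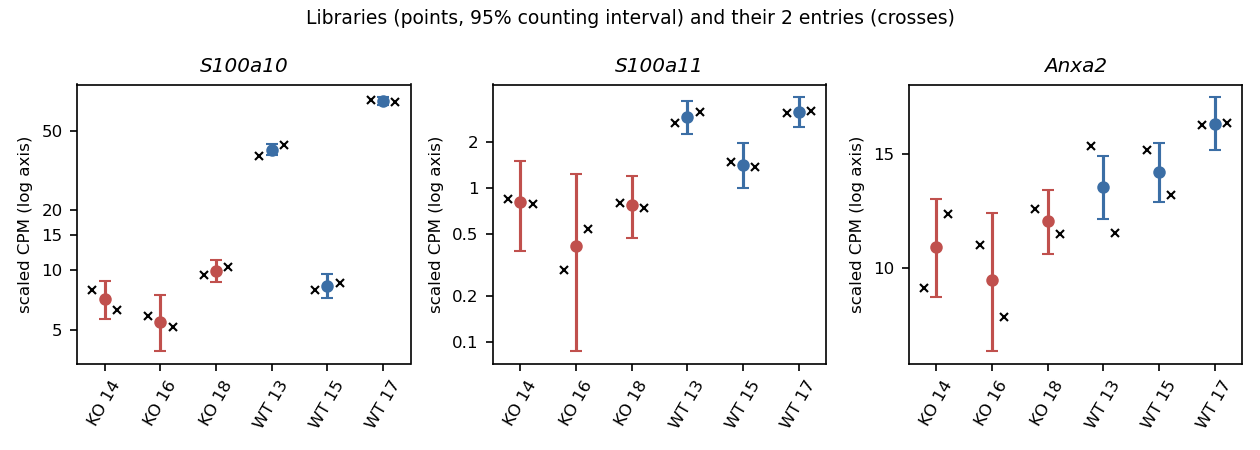
TMM-scaled CPM on log axes for S100a10, S100a11 and Anxa2 in each KO library (red) and WT library (blue), with exact 95% Poisson intervals as bars and the 2 entries of each library as crosses. For S100a10 the crosses lie close to their library, at most 1.26 times apart, and WT library 17 is 8.47 times WT library 15.

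Over the 7 genes other than S100a10, none passed an adjusted p of 0.05 by edgeR's quasi-likelihood test, which Fmr1 itself did not pass either. S100a11 and Anxa2 had an unadjusted p under 0.05 and were lower in knockout libraries, against 1.03% of all genes tested that were lower at that level. The same 2 genes had every knockout library below every wild-type library, as did 3.25% of all genes tested. In the authors' deposited table, which passed 85 of 14843 features, 0.573%, at an adjusted p under 0.05, S100a11 had a log2 fold change of -1.78 with an adjusted p of 0.00234. That table gives Anxa2 a log2 fold change of -0.44 with an adjusted p of 0.380. It holds values of all 12 entries, and no source used here names the test behind it. If that test counted the 2 entries of a library as separate samples, its p-values would be too small.

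**Figure D3:**
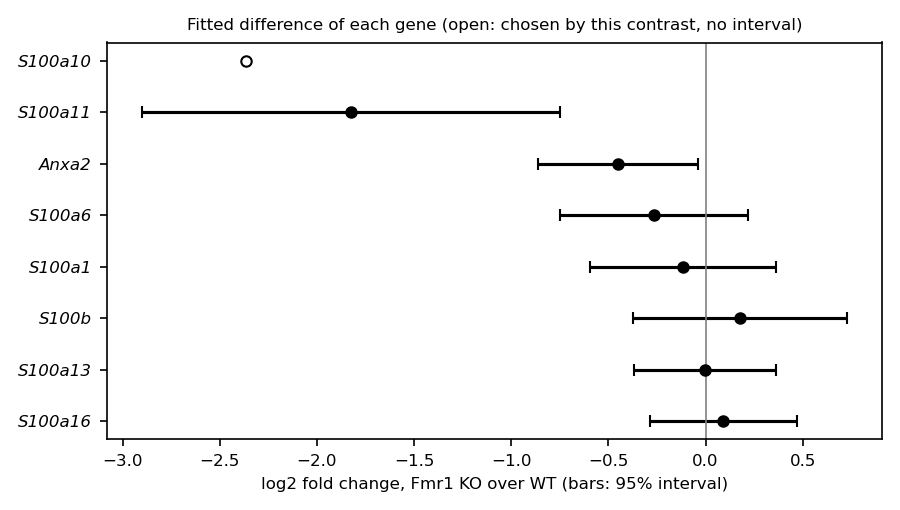
Fitted log2 fold change, Fmr1 KO over WT (horizontal axis), of the 8 genes, with 95% intervals as bars. S100a10 is drawn open without an interval because it was picked by this contrast, and the intervals of S100a11 (-2.90 to -0.75) and Anxa2 (-0.86 to -0.04) lie below 0.

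S100b, the S100 gene best known in astrocytes, encodes a calcium sensor that acts inside the cell and, once secreted, on its neighbours. It was at 1469, 1475 and 1056 CPM in knockout libraries 14, 16 and 18, against 1576, 1100 and 865 CPM in wild-type libraries 13, 15 and 17. Both groups overlapped over nearly their whole range, with means of 1333 ± 241 CPM in knockout and 1181 ± 362 CPM in wild-type libraries (SD, n = 3 each). Its log2 fold change was 0.18 with SE 0.24 and a 95% interval from -0.38 to 0.73, by edgeR's quasi-likelihood test at an adjusted p of 1.00, and it was -0.14 without knockout libraries 14 and 16.

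S100a1, whose protein is known in heart and muscle as a regulator of calcium release channels, was at 823, 939 and 797 CPM in knockout libraries 14, 16 and 18, against 1231, 807 and 732 CPM in wild-type libraries 13, 15 and 17. Only wild-type library 13 stood apart, and the other 5 libraries lay between 732 and 939 CPM. The log2 fold change was -0.11 with SE 0.21 and a 95% interval from -0.59 to 0.37, and without wild-type library 13 it was 0.15. For S100a1 and S100b these intervals leave room for changes in both directions and do not show that the levels were equal.

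S100a16, a widely made S100 protein with a role in fat cells, was at 510, 510 and 445 CPM in knockout libraries 14, 16 and 18, against 556, 407 and 411 CPM in wild-type libraries 13, 15 and 17. S100a13, whose protein helps export the growth factor FGF1 and interleukin 1 alpha from cells by a route outside the classical secretory pathway, was at 193, 229 and 216 CPM in the same knockout libraries, against 249, 183 and 206 CPM in the same wild-type libraries. For both genes wild-type library 13 was the highest of all 6 and the groups overlapped. The log2 fold changes were 0.09 with SE 0.17 for S100a16 (95% interval from -0.29 to 0.47) and -0.0018 with SE 0.16 for S100a13 (95% interval from -0.37 to 0.36).

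S100a6 encodes calcyclin, a partner of the calcyclin-binding protein that is made in dividing and glial cells. It was at 73.2, 59.3 and 78.0 CPM in knockout libraries 14, 16 and 18, against 111, 67.3 and 75.1 CPM in wild-type libraries 13, 15 and 17. Wild-type library 13 was high and the other 5 lay between 59.3 and 78.0 CPM. The log2 fold change was -0.27 with SE 0.21 and a 95% interval from -0.75 to 0.22, and without wild-type library 13 it was -0.02. Its sign differed between title numbers, at -0.75 within number 5 and 0.13 within number 6.

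That change of sign was shared by the 5 genes other than S100a10, S100a11 and Anxa2. The knockout minus wild-type difference in mean log2 CPM was -0.49 within number 5 and 0.05 within number 6 for S100a1, -0.24 and 0.15 for S100a13, -0.12 and 0.12 for S100a16, and -0.10 and 0.11 for S100b. Wild-type library 13, the highest of all 6 for each of these genes, is the one wild-type library with number 5. Without knockout libraries 14 and 16 the log2 fold changes were -0.19 for S100a1, -0.09 for S100a6, 0.04 for S100a13 and -0.02 for S100a16. S100a10, S100a11 and Anxa2 had a lower mean log2 CPM in knockout libraries within both numbers. Number 5 holds wild-type library 13 alone and number 6 holds knockout library 18 alone, so neither difference is replicated in both groups. For S100a10, knockout library 18 at 9.90 CPM was above wild-type library 15 at 8.29 CPM.

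How far the 8 genes followed each other was measured as the root mean square difference of log2 CPM over the 6 libraries after centring each gene on its own mean. The closest pairs were S100a13 with S100a16 at 0.13, S100a1 with S100a16 at 0.14 and S100a1 with S100a13 at 0.16, all 3 in the chromosome 3 cluster. S100a16 with S100b, which is on chromosome 10, came next at 0.17. S100a6, in the same cluster, was 0.23 to 0.26 from those 3 genes. S100a10 was nearest to S100a11, at 0.61, and farthest from S100b, at 1.51. S100a10 and Anxa2, whose proteins form a complex, were 1.16 apart, and Anxa2 ranked 398 of 13653 genes by nearness to S100a10. The measure also grows with the size of a gene's own swings, which were widest for S100a10.

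The levels of S100b varied from library to library in much the order of the astrocyte markers. The median log2 deviation of the 15 astrocyte markers from their wild-type means was 0.12, 0.19 and -0.32 in knockout libraries 14, 16 and 18, against 0.24, 0.07 and -0.38 in wild-type libraries 13, 15 and 17. For S100b the deviations were 0.36, 0.37 and -0.12 in the same knockout libraries, against 0.46, -0.06 and -0.40 in the same wild-type libraries. Both were highest in wild-type library 13 and lowest in wild-type library 17, and S100b is itself an astrocyte gene, so the 2 are not independent. The part of astrocyte RNA content in the S100b values was not tested.

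**Figure D4:**
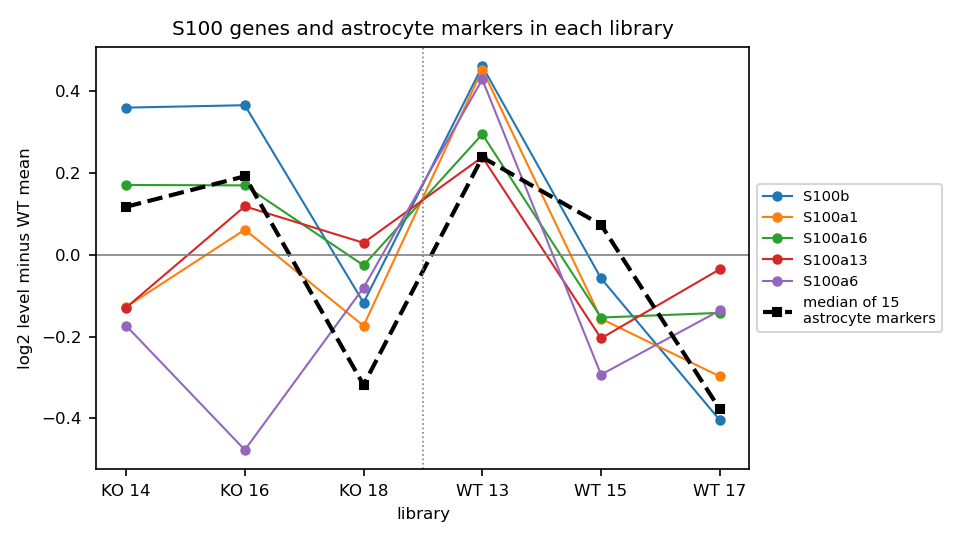
Log2 level minus the WT mean (vertical axis) of S100b, S100a1, S100a16, S100a13 and S100a6 in each library, KO libraries left of the dotted line and WT libraries right of it, with the median of the 15 astrocyte markers dashed. WT library 13 is the highest for each of the 5 genes and for the marker median, and KO library 18 and WT library 17 are the lowest for the marker median.

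The wider S100 family was sparse in these libraries. Of the 9 other S100 genes in the table, S100a3 and S100a4 passed the filter, and S100a5, S100g and S100z had no count in any library. S100a4, whose protein binds myosin and is known from motile cells, was at 13.6, 11.3 and 15.4 CPM in knockout libraries 14, 16 and 18, against 24.5, 9.36 and 20.4 CPM in wild-type libraries 13, 15 and 17. Wild-type library 15 was the lowest of all 6 libraries for S100a4 and wild-type libraries 13 and 17 were the highest, and for S100a10 too library 15 was the lowest of its group. The log2 fold change of S100a4 was -0.42 with SE 0.33. S100a3 was at 0.734, 0.422 and 0.812 CPM in the knockout libraries, against 1.49, 0.711 and 1.49 CPM in the wild-type libraries, with a log2 fold change of -0.84 and SE 0.49, and neither gene passed an adjusted p of 0.05 by edgeR's quasi-likelihood test. S100a8 and S100a9, genes of neutrophils, stayed under 0.2 CPM in each library.

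Annexins are a family of calcium-dependent membrane-binding proteins, and 8 of the 11 other than Anxa2 passed the filter. Of these 8, 7 had a lower fitted level in knockout libraries and 1 a higher one, none passed an adjusted p of 0.05 or an unadjusted one, and the median log2 fold change was -0.21, beside -0.0019 over all genes tested. Without knockout libraries 14 and 16 that median was 0.03. Anxa5, whose protein binds exposed phosphatidylserine, was at 265, 287 and 241 CPM in knockout libraries 14, 16 and 18, against 330, 261 and 262 CPM in wild-type libraries 13, 15 and 17. Anxa6, a regulator of membrane and cholesterol traffic, was at 126, 127 and 139 CPM in the same knockout libraries, against 121, 121 and 115 CPM in the same wild-type libraries. Anxa6 was the 1 annexin with a higher fitted level in knockout libraries, at a log2 fold change of 0.14 with SE 0.12, and its groups did not overlap, as was the case in that direction for 2.95% of all genes tested. Anxa1, which pairs with S100A11, had 1.14, 0.563 and 1.01 CPM in knockout libraries, against 1.23, 1.22 and 1.19 CPM in wild-type libraries, also without overlap, which in this direction held for 3.25% of all genes tested. That separation was narrow and rested on low counts, 14, 4 and 26 in knockout and 29, 31 and 31 in wild-type libraries. The log2 fold change of Anxa1 was -0.38 with SE 0.42. The log2 fold changes of Anxa4, Anxa7, Anxa8, Anxa11 and Anxa3 lay between -0.63 and -0.12.

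Known partners and cargoes of these proteins, and receptors they bind, made a list of 25 genes, of which 23 passed the filter. They were balanced, with 12 higher and 11 lower in knockout libraries, a median log2 fold change of 0.0045 and none past an adjusted p of 0.05 by edgeR's quasi-likelihood test. Fgf1, the growth factor that S100A13 helps to release, was at 78.0, 71.4 and 156 CPM in knockout libraries 14, 16 and 18, against 226, 207 and 240 CPM in wild-type libraries 13, 15 and 17. Its groups did not overlap, and the log2 fold change was -1.14 with SE 0.29 and an adjusted p of 1.00, while S100a13 itself was at -0.0018. Htr1b, a serotonin receptor that S100A10 brings to the membrane, was at 1.14, 0.845 and 1.43 CPM in knockout libraries, against 2.17, 2.29 and 2.22 CPM in wild-type libraries. The groups did not overlap, with a log2 fold change of -0.92 and SE 0.36. Counts of Htr1b were low, at 14, 6 and 37 in knockout and 51, 58 and 58 in wild-type libraries. Fgf1 and Htr1b were the 2 of 23 genes with an unadjusted p under 0.05, both lower in knockout libraries, against 1.03% of all genes tested, and the 2 without overlap, against 3.25%. The list was chosen with earlier results of these data known, so it is not independent of these values.

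Other partners had overlapping groups. Ahnak, a giant scaffold protein that the S100A10 and annexin A2 complex binds under the membrane, was at 9.14, 8.45 and 13.5 CPM in knockout libraries 14, 16 and 18, against 12.2, 13.1 and 15.3 CPM in wild-type libraries 13, 15 and 17. Grm5, which encodes the glutamate receptor mGluR5 named in the study's title, was at 41.4, 39.9 and 41.5 CPM in the same knockout libraries, against 29.9, 46.6 and 58.5 CPM in the same wild-type libraries. Plat, the tissue plasminogen activator that the complex binds, was at 31.4, 30.3 and 19.5 CPM in knockout libraries, against 24.9, 21.5 and 15.99 CPM in wild-type libraries. In log2 fold change these were -0.37 with SE 0.23 for Ahnak, -0.14 with SE 0.23 for Grm5 and 0.37 with SE 0.24 for Plat. Tlr4, a receptor of several S100 proteins, was at -0.84 with SE 0.45, Htr4, another serotonin receptor, at 0.49, Iqgap1, a cytoskeletal scaffold, at -0.30, and Syt1, a synaptic vesicle calcium sensor, at 0.22.

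S100a10 is often used as a marker of a reactive astrocyte state called A2. The other 11 genes of that list held 7 that passed the filter, with 3 higher and 4 lower in knockout libraries, a median log2 fold change of -0.03 and none at an unadjusted p under 0.05. Their levels were low, with a median of 1.32 CPM, and the median log2 fold change was unstable. It was -0.28 without knockout library 14, 0.32 without knockout library 16 and -0.505 with no filter, so it does not show an unchanged state.

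The 10 genes whose pattern over the 6 libraries was nearest to that of S100a10 were Gm45351 at a root mean square log2 difference of 0.60, S100a11 at 0.61, Dynlt1b at 0.65, Fcrls at 0.71, Vit at 0.71, Cfap74 at 0.73, Rnaset2b at 0.75, Gm45847 at 0.75, C1qc at 0.76 and Lmo1 at 0.77. They come from 13653 genes with a mean of at least 1 CPM, all points share the same 6 libraries, and 9 of the 10 stayed under a smaller prior count. In each of the 10 genes wild-type library 15 was lower than wild-type libraries 13 and 17. They were picked for likeness to S100a10, which has that pattern, so this follows from the selection. Among the family and its partners, Fgf1 ranked 44, S100a4 70, Anxa2 398 and S100b 11760.

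The nearest genes are of mixed kinds. Fcrls, a microglial Fc receptor-like gene, was at 1.31, 1.27 and 1.39 CPM in knockout libraries 14, 16 and 18, against 3.02, 1.11 and 4.17 CPM in wild-type libraries 13, 15 and 17. C1qc, a chain of the complement protein C1q, was at 2.20, 0.704 and 2.36 CPM in the same knockout libraries, against 4.85, 2.84 and 5.78 CPM in the same wild-type libraries. Cfap74, a gene of ciliary axonemes, was at 0.489, 1.83 and 0.851 CPM in knockout libraries, against 8.94, 0.869 and 8.53 CPM in wild-type libraries. Dynlt1b, a dynein light chain gene, lies at chr17:6429530-6440500 and Rnaset2b, a ribonuclease gene, at chr17:6978860-6998193. Rnaset2b was at 19.5, 13.2 and 26.0 CPM in knockout libraries, against 68.4, 23.4 and 45.3 CPM in wild-type libraries. Both genes have near-identical copies nearby, between which the counting may split reads, so their values are uncertain. Vit, an extracellular matrix gene, was at 0.348 to 1.06 CPM in knockout libraries and at 0.790 to 2.91 CPM in wild-type libraries. Lmo1, a transcription cofactor gene, was at 2.61 to 3.37 CPM in knockout libraries and at 2.80 to 8.15 CPM in wild-type libraries.

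**Figure D5:**
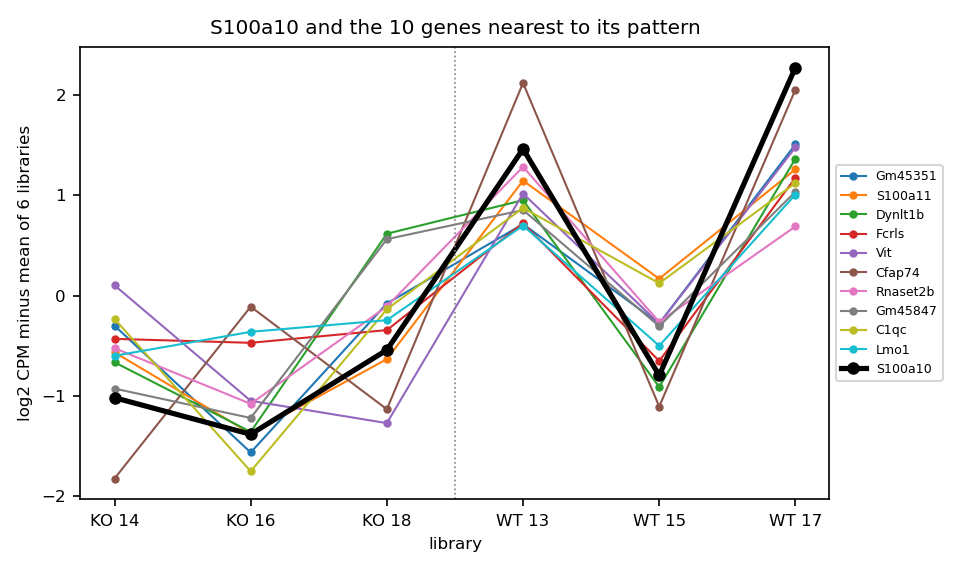
Log2 CPM (prior count 2) minus each gene's mean over 6 libraries (vertical axis) for S100a10 (black) and the 10 genes nearest to it, KO libraries left of the dotted line and WT libraries right of it. S100a10 is highest in WT library 17, and each of the 11 lines drops at WT library 15. The 10 genes were picked for likeness to S100a10, so the shared drop follows from the selection.

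The 3 annotated genes on each side of S100a10 on chromosome 3 were looked up, and S100a11 was the one found with counts. S100a11, 28828 bases before it, is described above. Gm29950, Tchhl1 and Gm5541, the other flanking genes found in the count table, had no count in any of the 6 libraries, which allows a level of up to 0.115 to 0.422 CPM depending on the library. The flanking genes Gm40093 and Gm18331 were not matched in the table and are not analysed here.

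Among the nearest genes, Fcrls and C1qc are also markers of microglia. Of the 12 microglia markers 11 had a lower fitted level in knockout libraries, as did 7550 of the 14990 genes tested. Their median log2 fold change was -0.23, and it was -0.39 without knockout library 14 and -0.40 without knockout libraries 14 and 16. C1qc was the 1 of the 12 with an unadjusted p under 0.05 by edgeR's quasi-likelihood test, against 1.03% of all genes tested that were lower at that level. C1qc and Fcrls are near in pattern to S100a10, which was picked for its low knockout level, so their lower levels are tied to that pick. None of the 12 markers was at 0 in all libraries. Their summed level was 59.2 to 69.8 CPM in knockout and 66.9 to 83.6 CPM in wild-type libraries, and it was 75.8 CPM in wild-type library 15, between 83.6 CPM in library 13 and 66.9 CPM in library 17. Their part in the S100a10 difference was not tested.

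S100a10 is known as a gene of layer 5 projection neurons and of vessel and meningeal cells, so markers of these were summed as well. The 9 layer 5 neuron markers summed to 221, 209 and 270 CPM in knockout libraries 14, 16 and 18, against 165, 247 and 280 CPM in wild-type libraries 13, 15 and 17. Wild-type library 13 had the lowest of these sums. The 11 fibroblast and meningeal markers summed to 874, 1172 and 831 CPM in the same knockout libraries, against 762, 1015 and 1254 CPM in the same wild-type libraries. Most of that sum was Ptgds, a prostaglandin synthase gene, with 806, 1106 and 760 CPM in knockout libraries, against 704, 944 and 1181 CPM in wild-type libraries. The 10 endothelial markers summed to 10.4 to 18.3 CPM in knockout libraries, against 12.2 CPM in wild-type library 13, the lowest of its group, and 18.5 CPM in wild-type library 17. The 9 mural cell markers summed to 58.4, 71.0 and 50.7 CPM in knockout libraries, against 68.8, 60.4 and 53.6 CPM in wild-type libraries. The largest part was the marker Pdgfrb, with 32.2, 44.5 and 26.1 CPM in knockout libraries, against 37.7, 34.9 and 24.7 CPM in wild-type libraries. The 10 ependymal and choroid plexus markers summed to 97.3, 16.3 and 88.2 CPM in knockout libraries, against 71.0, 196 and 23.4 CPM in wild-type libraries. Of these sums Ttr, the transthyretin gene, made up 75.2, 4.22 and 70.3 CPM in knockout libraries, against 51.4, 168 and 7.84 CPM in wild-type libraries. No marker of these lists was at 0 in all 6 libraries, and the part of these cell types in the S100a10 values was not tested.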

How the data were processed

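RNA-seq of astrocyte ribosome-bound RNA was analysed from tables the authors deposited. Per the submitters' processing notes, STAR 2.5.3a, RSEM 1.3.0 and edgeR were used with the build mm10; no source used here gives the annotation or strand setting. Per the file headers, the deposited counts are unscaled RSEM expected counts for each feature and entry. The authors' deposited table holds log2 fold changes and log2 CPM, p-values and adjusted p-values, and a scaled signal per entry.

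The 2 entries of each library differed by about the sampling noise for most features (median chi-square 0.467 to 0.494 per feature, against 2.93 to 18.8 between libraries of a group). They were summed, rounded and counted as 1 sample. Features were filtered with filterByExpr and scaled by TMM. Genotypes were compared by the quasi-likelihood F test of edgeR 4.0.16 in R 4.3.3 over 14990 features, with p-values adjusted by Benjamini-Hochberg and called under 0.05, and the procedure was checked on simulated data; SEs come from the F statistic. DESeq2 1.42.0, limma 3.58.1 and edgeR's exact test were alternatives. CPM is not per length, so levels of different genes were not compared. Sequences are from RefSeq, GRCm38.p6: all 8 genes matched the gene table by symbol.

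The genes, lists and rules were chosen with earlier results of these data known. Named genes were the 8 and Fmr1, the 10 nearest to S100a10, filtered S100 genes and annexins, Grm5, Fgf1, Ahnak and the 6 other partners with the largest absolute log2 fold change, the 2 markers of each list with the highest mean CPM, and 3 flanking genes on each side. Other S100 genes that the text names below the filter were added after their values were seen.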

Additional observations from a re-analysis of the deposited data

How the results depend on the processing

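None of the 7 genes other than S100a10 passed an adjusted p of 0.05 in any of 17 alternatives. S100a11 (log2 fold change -2.10 to -1.53), Anxa2 (-0.53 to -0.29) and S100a6 (-0.39 to -0.02) kept their sign in all 17. S100a10 (-2.84 to -1.65) did so too, but it was picked for its low knockout level in these libraries, so its sign is only a description. The count of genes called, 0 by edgeR's quasi-likelihood test, was 8 with DESeq2, 9 with edgeR's classic exact test, 6 with no filter, 1 with second entries only, 1 once the ribosomal RNA share was a covariate, and 0 to 2 when a library was left out, with 2 without knockout library 18 and 1 without wild-type library 15; the cause was not tested. The log2 fold change of S100a13, -0.0018, was 0.0070 with RLE size factors, 0.0068 with DESeq2, 0.0049 with limma voom, 0.028 with first entries, 0.043 without knockout libraries 14 and 16 together, 0.019 with the ribosomal RNA covariate, and -0.088 to 0.13 when a library was left out. S100a16 was -0.0013 with the title number as a covariate and -0.016 without knockout libraries 14 and 16. S100b was -0.14 without those 2, -0.095 with the ribosomal RNA covariate and -0.0057 to 0.44 when a library was left out. S100a1 was -0.26 to 0.15 when a library was left out. Leaving out libraries 14 and 16 and the ribosomal RNA covariate were chosen after seeing the data. The first of these leaves 1 knockout library, assumed to vary like the wild-type ones. Of 255 list medians under alternatives, 25 moved by more than the spread between replicates, among them that of the other annexins to 0.03 without libraries 14 and 16. No paired analysis was possible because the groups share no library number. Depth limits S100a11 most, with 3 counts in knockout library 16.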
